A study of Mus musculus with 8 samples.

Results

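Interferon regulatory factors are transcription factors that share a DNA-binding domain and recognise repeats of GAAA letters in the control regions of interferon and interferon-induced genes. IRF3 and IRF7 are activated by kinases downstream of pattern recognition receptors and switch on type I interferon genes, IRF5 acts in inflammatory cytokine induction, and IRF9 is the DNA-binding part of the complex through which type I interferon acts on its target genes. IRF1 is an interferon- and NF-kB-induced activator, IRF2 competes with it on shared sites, and IRF4 acts mainly in lymphoid cells and in some macrophages and dendritic cells. The contacts of 7 of these genes, Irf1, Irf2, Irf3, Irf4, Irf5, Irf7 and Irf9, were followed here among 21738 protein-coding genes. The members were chosen by name, and a loop counted for a gene when one of its 5 kb bins held the start site of the canonical GENCODE transcript.

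The data were H3K27ac HiChIP interaction lists from HPC-7, a line of mouse blood progenitors. In HiChIP, DNA ends that touch in the nucleus are ligated, and products that carry a chosen chromatin feature are pulled down. The feature here was H3K27ac, an acetylated histone found at active regulatory DNA. The 4 groups, named by isoform and treatment (UT or LPS), were cells with the full-length CEBPA isoform p42 or with the shorter leukaemia-associated p30, untreated or after 2 h of lipopolysaccharide at 100 ng/mL, with 2 replicates each. All groups thus carried an ectopic isoform, and no group without one was analysed here. The study's methods describe both tamoxifen-controlled fusions and constitutive constructs, and the labels do not say which was used for these libraries. Each group has 1 deposited list of loops, so that the spread between replicates is unknown, and every difference below compares pooled libraries, not conditions.

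The p30 lists held 80489 (UT) and 94609 (LPS) loops from 17976716 and 14503330 modelled contacts, and the p42 lists held 158233 (UT) and 78591 (LPS) from 18999991 and 15831583. Because p42 UT was the longest list, loop numbers were also counted in lists of equal size, each reduced to its 78591 most significant loops. Of 8 progenitor genes used to check the line, all 8 had start-site loops in every list. Of 10 genes of other blood cells or fibroblasts, 6 had none in any list and 2, the B cell gene Cd79a and the macrophage gene Adgre1, had loops in all 4 lists.

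In all, 6 of the 7 genes had loops. Their start-site bins took part in 34 (UT) and 38 (LPS) loops in p30 and 47 (UT) and 35 (LPS) in p42, which were 73 different bin pairs. Irf1 had the most pairs found in every list (7), Irf4 was joined to nothing, and the start-site bin of Irf9 had more H3K27ac coverage after LPS in both lines while its contacts did not pass the test. Relative to all shared loops, contacts of the Irf3 start-site bin were lower in p42 than in p30 under both treatments, a difference that was not called against the caller's expected counts.

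The sequence just upstream of the start site is shown for Irf1, the member with the most lasting contacts, for Irf2, the one with more loops in p42 under both treatments in the lists as deposited, and for Irf4, the one without loops. They were read from GRCm39 on the plus strand, the strand of all 3 genes, and exclude annotated UTRs and coding sequence. Irf1 covers chr11:53660591-53660811, Irf2 covers chr8:47192510-47192749 and Irf4 covers chr13:30932959-30933208. Capitals mark matches, on either strand, to GAAANNGAA (interferon response element), GGAANNGAA (ETS-IRF composite element), TTCNNNGAA (gamma-activated site, bound by STAT factors), TGANTCA (AP-1 site), TTGCNNAA (C/EBP site) or the NF-kB site.
Irf1: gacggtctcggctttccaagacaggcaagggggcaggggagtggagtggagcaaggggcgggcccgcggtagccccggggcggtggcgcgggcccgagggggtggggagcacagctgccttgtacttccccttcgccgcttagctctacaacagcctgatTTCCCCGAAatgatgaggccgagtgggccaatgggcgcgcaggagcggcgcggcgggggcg
Irf2: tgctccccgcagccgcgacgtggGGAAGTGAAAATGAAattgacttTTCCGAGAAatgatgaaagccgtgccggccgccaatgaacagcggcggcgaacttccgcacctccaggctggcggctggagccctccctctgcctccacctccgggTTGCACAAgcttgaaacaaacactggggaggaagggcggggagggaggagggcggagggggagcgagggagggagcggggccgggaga
Irf4: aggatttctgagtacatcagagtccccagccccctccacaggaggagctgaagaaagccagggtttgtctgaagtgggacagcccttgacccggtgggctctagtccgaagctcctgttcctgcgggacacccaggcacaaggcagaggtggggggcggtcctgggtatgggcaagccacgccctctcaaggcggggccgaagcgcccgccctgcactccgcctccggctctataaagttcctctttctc

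Over the 250 bases upstream of the start site, Irf1 held 1 match to the gamma-activated site and 1 to the NF-kB site. The NF-kB match does not lie wholly within the printed stretch. Irf2 held 1 match each to the interferon response element, the ETS-IRF composite element, the gamma-activated site and the C/EBP site, the first of these overlapping the composite element. Irf3 held 1 NF-kB match, and these letters were not found in the windows of Irf4, Irf5, Irf7 and Irf9. The Irf9 window lies wholly within the annotated gene, which begins 414 bases upstream of the start site used here, and the 250 bases before that beginning held 1 C/EBP match. Over the same 250 bases of all 21738 genes, 7.55% held the interferon response element, 6.94% the composite element, 7.69% the gamma-activated site, 6.18% the AP-1 site, 9.34% the C/EBP site and 5.17% the NF-kB site. A match is a string of letters, not a bound site.

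**Figure D1:**
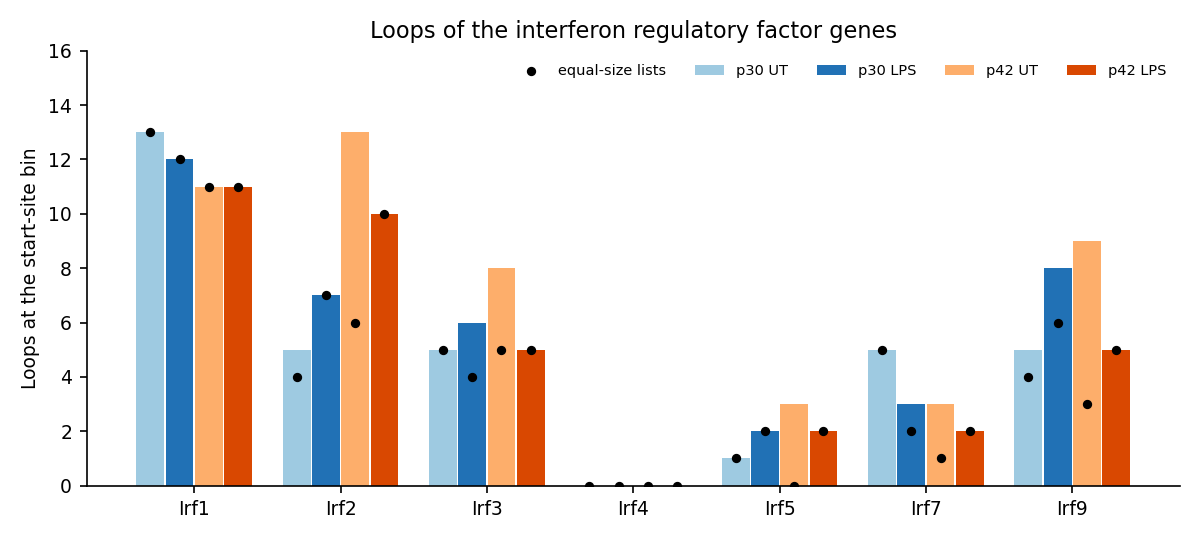
Number of loops at the start-site bin of each gene (bars, lists as deposited; points, lists of equal size) in p30 (UT, LPS) and p42 (UT, LPS). Irf1 stayed at 11 to 13 loops in all 4 lists, Irf2 went from 5 and 7 in p30 to 13 and 10 in p42, and Irf4 had 0.

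Irf1 (chromosome 11, 53660812 to 53669200, plus strand; start site 53660841) had 13 (UT) and 12 (LPS) loops in p30, and 11 under each treatment in p42. The same numbers were found in the lists of equal size. It had more loops than 94.8% (UT) and 89.9% (LPS) of the genes with a start-site loop in p30, and than 78.1% (UT) and 91.8% (LPS) of those in p42. The protein-coding genes with the most similar loop numbers over the 4 lists of equal size were Stat6, Nr1i3 and Zfp143, at Euclidean distances of 0.154, 0.200 and 0.200 on the square-root scale. The Irf1 bin also holds the start sites of the noncoding or unconfirmed transcripts Gm17334 and Gm74496, whose contacts cannot be told apart from those of Irf1.

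Most partners of Irf1 lay downstream. Of its 16 bin pairs, 15 lay downstream, from 10 kb to 100 kb, over the long noncoding RNA gene Gm12216 and up to an exon of the carnitine transporter gene Slc22a5, and 1 lay 10 kb upstream. The upstream pair had 85 contacts in p30 LPS, the most of any Irf1 pair in that list, and 71 in p42 UT, and was not listed in p30 UT and p42 LPS, where 61 and 53 would have been enough. No partner bin held the start site of a protein-coding gene. In all, 7 pairs were found in all 4 lists. The bin 10 kb downstream had 59 (UT) and 73 (LPS) contacts in p30 and 94 (UT) and 53 (LPS) in p42, which were 1.88 to 2.88 times the expected number.

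The bin 80 kb downstream had 27 (UT) and 23 (LPS) contacts in p30 and 30 (UT) and 24 (LPS) in p42, which were 11.8, 11.3, 13.3 and 12.2 times the expected number. Among the 16 pairs of Irf1 this was the highest excess in every list. The bin spans chr11:53740001-53745000, and 200 bases of it, chosen as the first stretch outside UTRs and coding exons with the most motif matches, are shown with the same capitals because this was the partner with the highest excess; they cover chr11:53740133-53740332 on the plus strand and hold 1 match, to the composite element.
Irf1 partner at 80 kb: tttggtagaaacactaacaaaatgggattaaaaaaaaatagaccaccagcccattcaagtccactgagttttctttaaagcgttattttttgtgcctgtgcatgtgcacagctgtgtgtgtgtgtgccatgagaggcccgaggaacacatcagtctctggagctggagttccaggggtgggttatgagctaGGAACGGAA

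The partner bin at 80 kb holds 4 matches to the composite element and 2 to the interferon response element in its 5 kb, where the median over 64985 peak bins is 2 for each. Its coverage in p30 was 1.23 (UT) and 1.11 (LPS) times the mean peak bin, and in p42 1.01 (UT) and 0.919 (LPS) times. The highest excess of Irf1 was thus at a bin with H3K27ac coverage near the mean of peak bins.

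**Figure D2:**
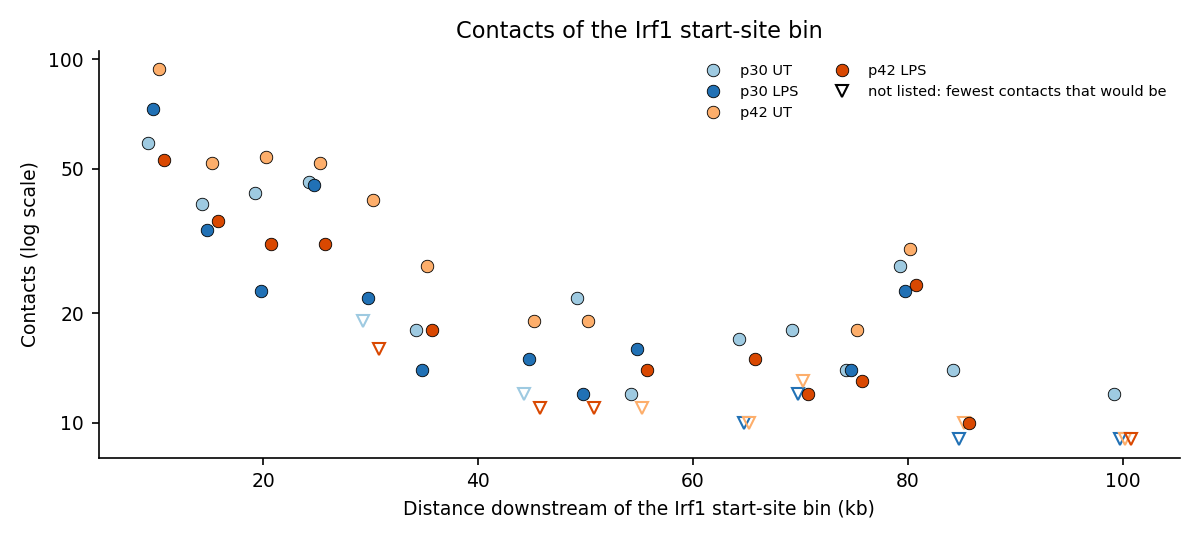
Contacts of the Irf1 start-site bin (log scale) with each downstream partner bin, by distance in kb, in the 4 lists; open triangles stand at the fewest contacts with which an unlisted pair would have been listed. The partner at 80 kb holds 23 to 30 contacts in every list, above its neighbours at 75 kb (13 to 18).

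Irf2 (chromosome 8, 47192222 to 47300501, plus strand; start site 47192760) had 5 (UT) and 7 (LPS) loops in p30 and 13 (UT) and 10 (LPS) in p42. In lists of equal size these were 4 and 7 in p30 and 6 and 10 in p42. It was the only member with more loops in p42 than in p30 under both treatments, in both settings. At stricter q-values it had more in p42 UT but not in p42 LPS, with 4 loops in each isoform after LPS at a q-value under 0.001 and 1 in each under 1e-05. The Irf2 bin also holds the start site of Gm16675, whose contacts cannot be told apart from those of Irf2. All 21 pairs lay downstream, 25 kb to 215 kb away, through the introns and later exons of Irf2 itself and beyond its end. The pairs changed from list to list: 1 was found in all 4, 2 in 3, 7 in 2 and 11 in 1. The lasting one joined the start to an intronic bin 50 kb downstream, with 17, 16, 24 and 16 contacts in p30 (UT, LPS) and p42 (UT, LPS). The contacts of single loops were few, from 8 to 32, so that a loop could leave a list through a change of a few contacts.

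The bin 215 kb downstream of Irf2 had 15 contacts in p42 LPS, 10.3 times the expected number. In p42 UT the pair was not listed, where 9 contacts would have been enough and 18.0 would correspond to the p42 LPS number at an equal number of modelled contacts. For both p30 lists no such limit can be given.

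Irf3 (chromosome 7, 44647033 to 44652272, plus strand) shares its start-site bin with Bcl2l12, and their contacts cannot be told apart. There were 5 (UT) and 6 (LPS) loops in p30 and 8 (UT) and 5 (LPS) in p42; lists of equal size gave 5 and 4 in p30 and 5 under each treatment in p42. In all, 4 of its 10 pairs were found in every list, all within 20 kb. The bin with the start of Prmt1, an arginine methyltransferase gene, lay 10 kb upstream and had 171 (UT) and 163 (LPS) contacts in p30 and 173 (UT) and 108 (LPS) in p42. The bin with the starts of the small GTPase gene Rras and of Scaf1, a gene for a factor linked to splicing, lay 20 kb downstream and had 43 (UT) and 50 (LPS) contacts in p30 and 50 (UT) and 34 (LPS) in p42. These short loops were 1.74 to 3.78 times the expected number, at a start-site bin with coverage of 2.08 to 2.98 times the mean peak bin.

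Irf5 (chromosome 6, 29526276 to 29541870, plus strand; start site 29526624) had 1 (UT) and 2 (LPS) loops in p30 and 3 (UT) and 2 (LPS) in p42, and 1 and 2 in p30 and 0 and 2 in p42 in lists of equal size. The one pair in all 4 lists joined it to the start of Tnpo3, a nuclear import receptor gene, 80 kb downstream. It had 16 (UT) and 13 (LPS) contacts in p30 and 13 (UT) and 12 (LPS) in p42, which were 6.40, 5.66, 4.69 and 5.32 times the expected number. The bin 10 kb downstream, within Irf5, had the most contacts, 56 in p30 LPS and 54 in p42 UT, 2.23 and 1.79 times the expected number. That pair was not listed in p30 UT and p42 LPS, where 53 and 41 would have been enough.

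Irf7 (chromosome 7, 140842619 to 140846398, minus strand; start site 140846398) had 5 (UT) and 3 (LPS) loops in p30 and 3 (UT) and 2 (LPS) in p42, and none of its 9 pairs was in all 4 lists. In lists of equal size it had 5 and 2 in p30 and 1 and 2 in p42. Upstream of it, the bin with the starts of Deaf1, a transcription factor gene, and Tmem80 lay 60 kb away and was joined in both p30 lists, with 14 and 15 contacts. In p42 UT and p42 LPS the pair was not listed, where 13 and 12 contacts would have been enough. Another 3 bins of Deaf1, 35 kb to 50 kb upstream, had 17 contacts each in p30 UT and were not listed elsewhere. Downstream, the bin with the start of Phrf1, a ubiquitin ligase gene, lay 40 kb away and had 20 (p30 LPS) and 28 (p42 UT) contacts. For the Deaf1 bins above, the counts in the p30 lists and the limits in the p42 lists lie within a few contacts of each other. The most contacts of any Irf7 pair were 48, in p42 LPS, with a bin in Phrf1 10 kb downstream. This pair was not listed in p30 UT and p42 UT, where 48 and 47 would have been enough. For p30 LPS no such limit can be given. Bins upstream at 30 kb (22 contacts, p42 UT) and 135 kb (9 contacts, p42 LPS) were each found in 1 list.

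Irf9 (chromosome 14, 55841028 to 55847812, plus strand; start site 55841442) had 5 (UT) and 8 (LPS) loops in p30 and 9 (UT) and 5 (LPS) in p42, and 4 and 6 in p30 and 3 and 5 in p42 in lists of equal size. In contrast to Irf1 and Irf2, 8 of its 13 pairs lay upstream, and 7 partner bins held starts of protein-coding genes. The bin with the start of Dcaf11, a ubiquitin ligase adaptor gene, lay 45 kb upstream and had 28 (UT) and 33 (LPS) contacts in p30 and 34 (UT) and 21 (LPS) in p42. A bin in Rnf31 10 kb upstream had 94 (UT) and 103 (LPS) in p30 and 98 (UT) and 81 (LPS) in p42.

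The bin 15 kb upstream of Irf9 holds the starts of Psme2, a proteasome activator subunit gene, and Rnf31, a linear ubiquitin ligase gene. It had 41, 54 and 46 contacts in p30 UT, p30 LPS and p42 UT, and was not listed in p42 LPS, where 37 would have been enough. The bin of Emc9, 20 kb upstream, was joined in 3 lists with 26 to 28 contacts. The bin of Gmpr2 and Nedd8, the gene of a ubiquitin-like modifier, was joined 65 kb downstream in p30 LPS and p42 UT with 12 contacts each.

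Irf4 (chromosome 13, 30933209 to 30950959, plus strand) had no loop at its start site in any list, none in its gene body and none that spanned it. The nearest listed bin lay 65 kb downstream in p30 UT and p42 UT and 70 kb downstream in p30 LPS and p42 LPS. Within 100 kb, 2 to 4 loops were listed. One bin in this stretch had a value in all 4 lists, 75 kb downstream of Irf4 in Exoc2, an exocyst subunit gene, with coverage of 0.66 (UT) and 0.87 (LPS) times the mean peak bin in p30 and 0.64 (UT) and 1.08 (LPS) times in p42. This was a log2 difference with LPS of 0.39 in p30, above 93.5% of 37092 peak bins, and of 0.75 in p42, above 99.4% of 40939. A list of significant pairs does not give the coverage of a bin without loops, so the H3K27ac level of Irf4 itself is unknown here.

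**Figure D3:**
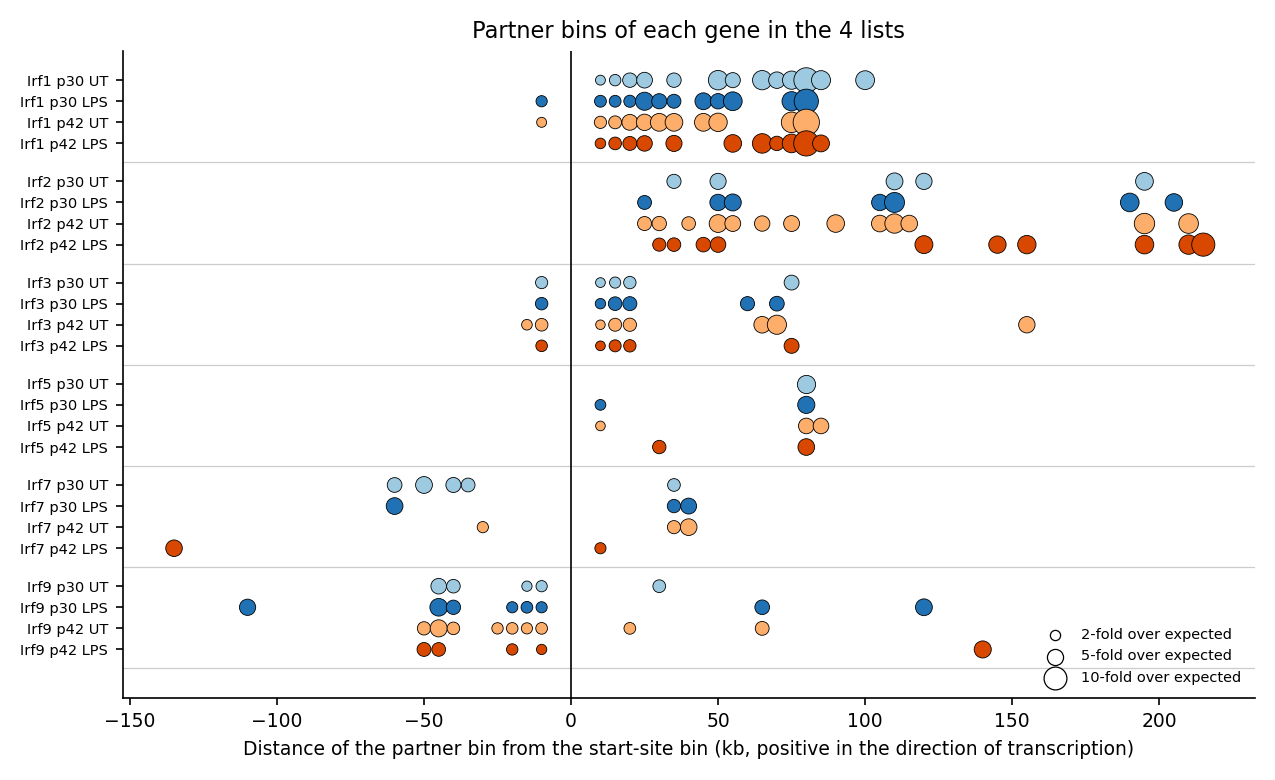
Partner bins of the 6 genes with loops by distance from the start-site bin (kb, positive in the direction of transcription), 1 line per gene and list; the area of a point grows with contacts over expected. Irf1 and Irf2 are joined almost solely downstream, Irf9 mostly upstream.

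The question whether the isoform or LPS changed the number of loops was read against all genes with a start-site loop in either list. In the lists as deposited, 4 of 6 members had more loops in p42 UT than in p30 UT and 2 (Irf1 and Irf7) had fewer, where 81.9% of all genes had more and 8.25% fewer. In lists of equal size 1 had more and 4 had fewer, against 41.8% and 37.7% of all genes. Under LPS, p42 exceeded p30 in 1 member and fell short in 4, against 23.6% and 58.7%, and in lists of equal size 2 had more and 2 fewer, against 33.7% and 46.7%. After LPS, 4 members had more loops and 2 fewer in p30 (53.1% and 27.6% of all genes), and 0 had more and 5 fewer in p42 (4.51% and 87.3%). In lists of equal size 3 had more and 3 fewer in p30 (42.3% and 36.8%), and in p42 the direction turned, with 4 more and 0 fewer (31.8% and 46.4%). With 6 genes and 1 list per group, these counts are a description.

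Of the 73 pairs, 15 were in all 4 lists, 8 in 3, 20 in 2 and 30 in 1. Of the 20 pairs in exactly 2 lists, 10 were in p30 LPS and p42 UT and 6 in p30 UT and p42 LPS, which share neither isoform nor treatment. A further 3 were in both p42 lists, 1 was in both p30 lists, and 0 were shared by both UT or both LPS lists. Over all start-site bin pairs in exactly 2 lists, 36.3% were in p30 LPS and p42 UT and 3.03% in p30 UT and p42 LPS, 39.4% together. For the members both kinds together came to 80%. The count of crossed pairs and its repeat in lists of equal size were both added after the data were seen. In lists of equal size, 10 of 14 such pairs of the members were crossed, 5 of each kind, where 18.9% of all start-site pairs were in p30 LPS and p42 UT and 10.9% in p30 UT and p42 LPS.

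The 6 pairs of p30 UT and p42 LPS belonged to Irf1 (3), Irf2 (2) and Irf3 (1). One was the Irf1 bin 65 kb downstream, with 17 contacts in p30 UT and 15 in p42 LPS, 7.13 and 7.31 times the expected number. In p30 LPS and in p42 UT the pair was not listed, although 10 contacts would have been enough in each and 18.0 would correspond to the highest of the other lists at the modelled contacts of p42 UT. The bins at 70 kb and 85 kb were found in the same 2 lists. The opposite set held the Irf1 bins at 30 kb, with 22 contacts (p30 LPS) and 41 (p42 UT), and at 45 kb, with 15 and 19. Neighbouring bins of 1 gene are not independent, and the part of depth, which differs between the lists as given above, was not tested.

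To compare contacts apart from list length, the contacts of each gene were summed over loops with the same bins in both lists. The share of the first-named list (p42, or LPS) was set against the share over all such loops by a two-sided exact binomial test, adjusted over all genes tested. Differences are log2 ratios centred on that share. Irf3 had 367 contacts in p30 UT and 380 in p42 UT at 4 loops, where the share over all loops was 56.3% in p42 UT and that of Irf3 50.9%. The centred log2 difference was -0.31 (SE 0.11; exact binomial test, adjusted p = 0.0457). Under LPS it had 384 contacts in p30 and 262 in p42, a centred log2 difference of -0.50 (SE 0.12; exact binomial test, adjusted p = 0.000782).

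All 4 Irf3 loops had a negative centred log2 difference in both comparisons, from -0.57 to -0.04 in UT and from -0.54 to -0.40 in LPS. The UT call was lost when the share was taken from modelled contacts (centred log2 -0.03) and when the bins on each side were included (-0.22). The LPS call was kept in these settings (-0.68 and -0.34). At distances of at least 20 kb neither was called (-0.15 in UT and -0.54 in LPS). Over loops in all 4 lists both were called (-0.39 and -0.47). Set against the caller's expected counts, which correct for coverage, the difference was 0.15 in UT and -0.26 in LPS, and neither was called. Relative to the mean peak bin, the coverage of the Irf3 bin was itself lower in p42, by the values given below, but per modelled contact the UT difference in coverage was -0.03.

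No other member passed the test in the comparisons in which it shared a loop. Irf4 could not be tested, nor could Irf7 in the comparisons with p42 LPS. In p42 UT against p30 UT, 4.41% of all genes were called higher and 2.58% lower, and in p42 LPS against p30 LPS 1.86% and 3.83%. For LPS against UT the shares were 2.14% and 1.04% in p30 and 0.487% and 2.11% in p42. Irf1 had 269 contacts in untreated p30 and 346 in untreated p42 at 8 shared loops, the same share as over all loops (centred log2 0.00, SE 0.12), and 242 in p30 LPS against 220 in p42 LPS (-0.09, SE 0.13). In p30, Irf9 went from 182 to 209 with LPS (0.25, SE 0.15; exact binomial test, adjusted p = 0.567), and in p42 from 173 to 143, where all shared loops had 41.9% of their contacts in p42 LPS (0.20, SE 0.16; exact binomial test, adjusted p = 0.792). Against the caller's expected counts the Irf9 differences were 0.13 in p30 and -0.33 in p42, the latter in the opposite direction, and neither was called (exact binomial test, adjusted p = 0.876 and 0.291). Irf2, Irf5 and Irf7 had 12 to 70 contacts per list in these sums, with standard errors of 0.26 to 0.58, so that a moderate change would not have been detectable.

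The LPS change of contacts was compared between p42 and p30 in the 5 members with a loop in all 4 lists, and none was called by the exact conditional test. The centred log2 difference of the changes was -0.02 for Irf1 (SE 0.18), -0.08 for Irf3 (SE 0.16) and -0.01 for Irf9 (SE 0.26). Over all genes, 0.0794% had a larger change in p42 and 0.933% a smaller one. Of the single loops of the members, 0 of 21, 17, 22 and 20 were called in the 4 comparisons by the exact binomial test, and 2, 2, 1 and 0 had an unadjusted p under 0.05. Over all loops the called shares were 1.34% (p42 UT over p30 UT), 0.742% (p42 LPS over p30 LPS), 0.317% (p30 LPS over p30 UT) and 0.296% (p42 LPS over p42 UT).

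**Figure D4:**
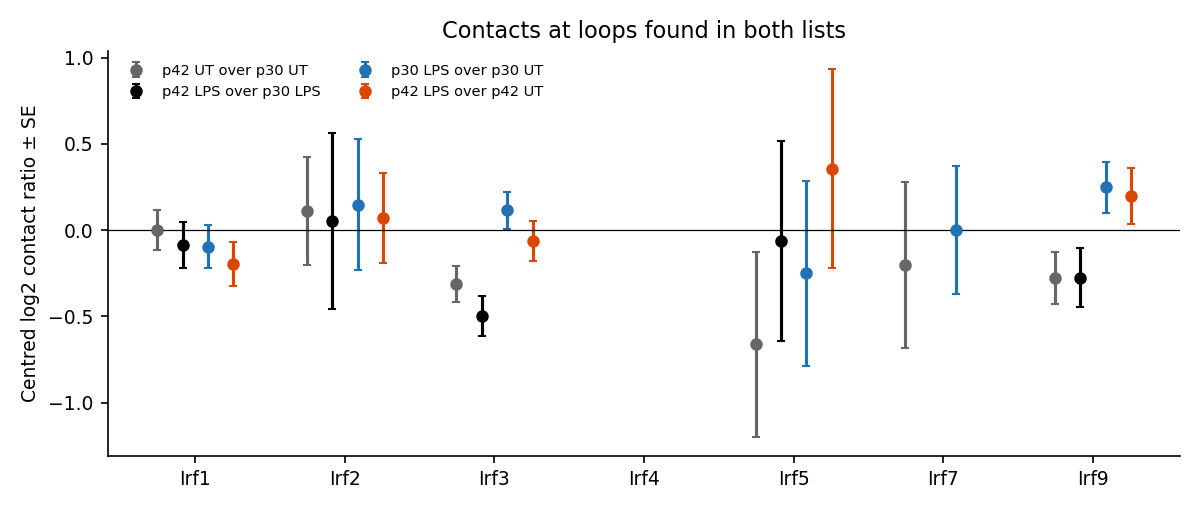
Centred log2 ratio of contacts at loops found in both lists, with its standard error from counting, per gene and comparison. Irf3 lies at -0.31 and -0.50 in the comparisons of p42 with p30, Irf1 within 0.20 of 0 in all 4, and Irf5 and Irf7 have wide errors.

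Levels of H3K27ac were read from the coverage of the start-site bins, the reads per bin divided by the mean of peak bins of the same list. For Irf9 it went from 1.98 (UT) to 2.85 (LPS) in p30 and from 1.59 (UT) to 2.50 (LPS) in p42. Both LPS values lay above both UT values. The difference was 1.44-fold in p30, above 96.9% of 7203 start-site bins, and 1.58-fold in p42, above 99.6% of 7419. It passed 1.5-fold, the size called here, in p42, where 0.634% of all bins were higher and 1.77% lower by as much. In p30 these shares were 2% and 0.292%. Among 21 peak bins within 100 kb in p30, and 23 in p42, none had a higher ratio than the Irf9 bin. The bin in Rnf31 10 kb upstream, a partner in all 4 lists, had log2 ratios of 0.37 in p30 and 0.30 in p42, above 92.7% and 90.4% of peak bins. The bin of Psme2 and Rnf31 had 0.31 in p30 and -0.10 in p42. No replicate spread is available for coverage, and on the scale of modelled contacts the p42 difference was 0.33 on the log2 scale.

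The Irf1 start-site bin had coverage of 1.54, 1.71, 1.38 and 1.41 in p30 (UT, LPS) and p42 (UT, LPS). Its LPS difference did not reach 1.5-fold, with 0.16 on the log2 scale in p30 and 0.02 in p42. The adjacent bin 5 kb upstream had 1.84, 2.62, 1.91 and 1.92, a log2 difference of 0.50 in p30 and 0.01 in p42. Bins 15 to 30 kb downstream, within Gm12216, had lower coverage after LPS in both lines. The bin at 25 kb, picked after its values were seen, had 3.31 (UT) and 2.60 (LPS) in p30 and 3.57 (UT) and 1.99 (LPS) in p42. Its log2 difference was -0.35 in p30, below all but 8.01% of peak bins, and -0.84 in p42, below all but 0.15%. The bins at 15, 20 and 30 kb had log2 differences of -0.34 to -0.25 in p30 and -0.58 to -0.40 in p42. Contacts of Irf1 with the bin at 25 kb were 46 (UT) and 45 (LPS) in p30 and 52 (UT) and 31 (LPS) in p42, and did not pass the test.

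Irf2 had start-site coverage, in the same order, of 1.56, 1.91, 1.61 and 1.71, Irf5 of 1.87, 1.95, 1.75 and 1.44, and Irf7 of 1.26, 1.08, 1.14 and 1.09. Irf3 had the highest coverage of the members in the UT lists and in p30 LPS, with 2.71, 2.98, 2.32 and 2.08. Its log2 difference between p42 and p30 was -0.22 in UT and -0.52 in LPS, the latter below all but 6.42% of start-site bins. At its start-site bin, no member passed 1.5-fold between isoforms. Of all such bins, 4.14% were higher and 1.15% lower in p42 UT, and 1.55% higher and 3.91% lower in p42 LPS. Over 16 peak bins within 100 kb of Irf2, the median log2 difference of p42 LPS over p30 LPS was 0.33, from -0.16 to 0.83, against 0.00 over all peak bins. Of these bins, 15 lay above the Irf2 start-site bin. In UT the median was 0.03, against -0.03. Under LPS the medians around Irf1, Irf3, Irf5, Irf7 and Irf9 were -0.19, -0.21, -0.15, -0.08 and -0.13, and 0.26 around Irf4.

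**Figure D5:**
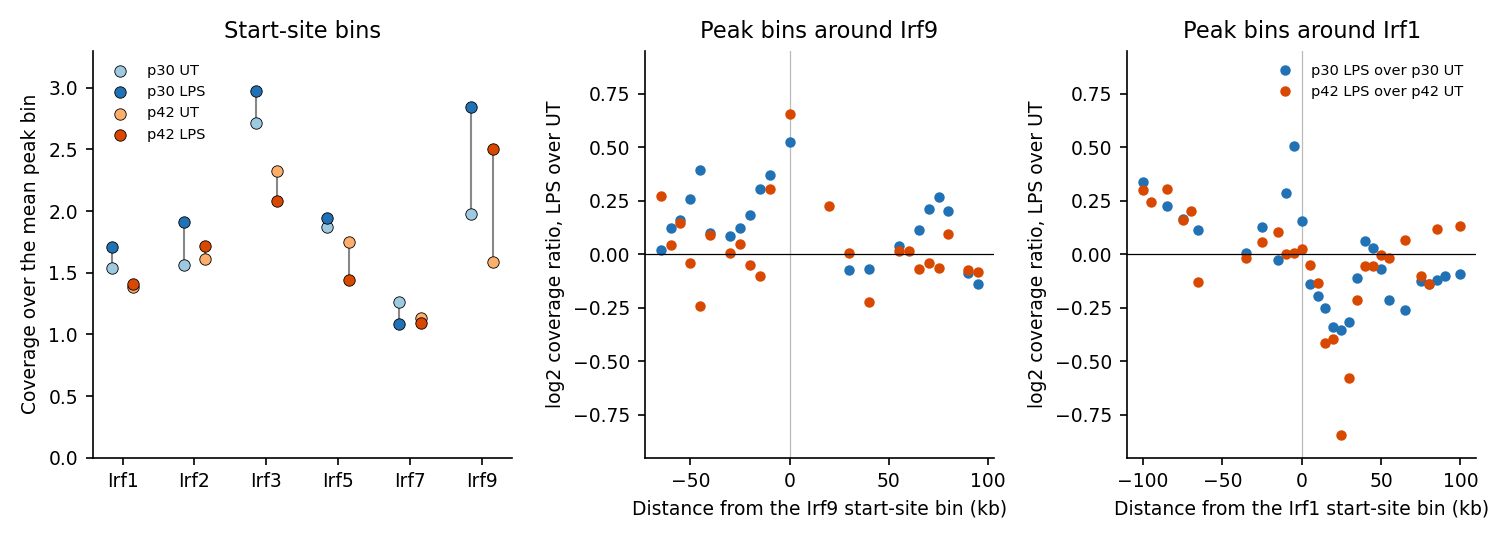
Left, coverage of each start-site bin over the mean peak bin, with UT and LPS of a line joined. Middle and right, log2 coverage ratio of LPS over UT for peak bins within 100 kb of Irf9 and Irf1. The Irf9 start-site bin is the highest point in both lines, and bins 15 to 30 kb downstream of Irf1 lie below 0 in both.

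The median distance and the median contacts over expected of the members' loops were near those of all genes. Their median distance was 42.5, 42.5, 40 and 50 kb in p30 (UT, LPS) and p42 (UT, LPS), against 50, 45, 50 and 45 kb over all start-site loops. Their median contacts over expected were 4.30, 4.29, 4.69 and 4.31, against 4.63, 4.67, 4.56 and 4.64. Loops over 100 kb made up 8.82%, 15.8%, 12.8% and 22.9% of the members' loops, against 21.4%, 19.7%, 21.8% and 19.1%. Median contacts were 17, 17.5, 22 and 15, against 19, 19, 20 and 19. The median number of loops per gene with a loop was 5, 6.5, 8.5 and 5, against 3, 3, 5 and 3.

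The pathway around these factors was represented by 36 genes of LPS sensing, kinases, interferons and receptors, JAK and STAT proteins, feedback inhibitors, IRF2-binding co-repressors and partner factors. Between the isoforms, 3 of 24 tested genes had higher and 0 lower contacts in p42 UT (4.41% and 2.58% of all genes), and 2 of 26 higher and 1 lower in p42 LPS (1.86% and 3.83%). With LPS, 4 of 23 were higher and 0 lower in p30 (2.14% and 1.04%), and 2 of 27 higher and 2 lower in p42 (0.487% and 2.11%), all relative to the shared loops of all genes. Irf2bp2, one of the co-repressor genes, was among those higher in both, although its contacts in p42 went from 816 (UT) to 702 (LPS). Against the caller's expected counts its p42 difference was -0.12 and was not called (exact binomial test, adjusted p = 0.454). The median centred log2 difference of the list with LPS was 0.18 in p30 and 0.22 in p42, against 0.00 and -0.01 over all genes. Against the expected counts it was 0.18 in p30 and -0.11 in p42, where the medians over all genes were 0.15 and -0.15, so the direction in p42 turned. Ifnb1 and Ifng, the interferon genes of the list, and Traf6, an adaptor gene, had no loop in any list.

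Cd14, the LPS co-receptor gene, had 111 contacts in p30 UT and 465 in p42 UT at 4 loops (centred log2 1.70, SE 0.15; exact binomial test, adjusted p = 8.38e-32). Spi1, which encodes PU.1, a partner of IRF4 on composite elements, had 630 and 1093 (0.43, SE 0.07; exact binomial test, adjusted p = 2.46e-07). Sting1, an adaptor gene upstream of IRF3, was lower in p42 LPS than in p30 LPS with 144 and 216 contacts (-0.53, SE 0.16; exact binomial test, adjusted p = 0.0150). With LPS in p30, Ly96, the TLR4 co-receptor gene, rose from 111 to 178 contacts (0.73, SE 0.17; exact binomial test, adjusted p = 0.00283) and Ifngr2, an interferon gamma receptor gene, from 411 to 508 (0.35, SE 0.10; exact binomial test, adjusted p = 0.0133). Set against the expected counts, an alternative added after seeing the data, 4 of the 14 calls of the list were kept and 5 were added. Of the added calls, 3 were higher in p42 UT than in p30 UT, where 9.14% of all genes were called higher on that scale, and 2 were lower with LPS in p42, where 5.23% of all genes were. The calls of Cd14 (0.62) and Spi1 (0.35) in UT and of Ifngr2 (0.38) were kept, and so was that of Irf2bp2 in p30. Against the expected counts, 3.41% of all genes were called higher with LPS in p30. The other Cd14 calls were lost, with its difference between p42 LPS and p30 LPS going from 0.97 to 0.07 and that with LPS in p30 from 0.80 to 0.40. Those of Sting1 (-0.32; exact binomial test, adjusted p = 0.420) and Ly96 (0.39; exact binomial test, adjusted p = 0.240) were lost, and the higher contacts of Spi1 in p42 LPS than in p30 LPS turned direction, from 0.38 to -0.10.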

How the data were processed

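H3K27ac HiChIP was carried out in 8 libraries of 4 groups. Per the study's methods, reads were mapped to mm39 with BWA (0.7.17 in the submitters' processing notes), duplicates were removed with pairtools, and loops were called with FitHiChIP. The deposited lists hold 5 kb bins and q-values under 0.01. How replicates were pooled is not given in the sources used here.

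The authors deposited whole-number contact counts and per-bin coverage, without normalization. The deposited expected count is the caller's estimate from distance and coverage, the deposited probability is that estimate as a fraction of all modelled contacts, the deposited coverage bias is a ratio to the mean bin of its class, and the deposited p-value and q-value are binomial. Lists hold significant pairs alone; coverage correction can remove part of a real difference.

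Start sites came from GENCODE M39 on GRCm39, the assembly of mm39; all listed bins lay within its 21 chromosomes. The members and lists were chosen with earlier results of these data known. The fewest contacts with which an unlisted pair would have been listed were computed from the caller's model, which is exactly log-linear in the coverage bias of both bins at each distance. Contacts were compared by two-sided exact binomial and conditional exact tests with Benjamini-Hochberg adjustment over all genes tested (adjusted p under 0.05), which cover counting error only. Coverage had no test; 1.5-fold was called. On simulated data, 69.5% of 200 genes changed 2-fold were recovered among 7002 for p42 UT over p30 UT, with 4.14% of calls false, and 48% of 200 among 5040 for the difference of LPS changes. The simulated counts had counting error alone, with no added spread between libraries and no threshold for listing. These figures therefore do not give the error rate in the pooled lists. Named genes were all members, partner genes with a start site joined in at least 2 lists, the 5 pathway genes with the smallest adjusted p, and the 3 genes most like Irf1; other genes were named as landmarks. Alternatives were lists of equal size, stricter q-values, neighbouring bins, a distance of at least 20 kb, loops in all 4 lists and other scalings. Python 3.11.15, numpy 2.4.6, pandas 2.3.3, scipy 1.17.1 and matplotlib 3.10.9 were used.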

Additional observations from a re-analysis of the deposited data

How the results depend on the processing

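No paired analysis was possible because each list pools both replicates; for the same reason no replicate could be left out. Of 91 recomputed counts, 56 stayed within 1.5 times. Crossed pairs of the members numbered 10 in lists of equal size. Loop totals of the members in p30 UT were 22 at a q-value under 0.001, 12 under 1e-05 and 67 with the bins on each side; in p30 LPS 16 under 1e-05 and 78 with the bins on each side; in p42 UT 26 in lists of equal size, 22 under 1e-05 and 96 with the bins on each side; in p42 LPS 21 under 0.001, 9 under 1e-05 and 61 with the bins on each side. Members with more loops in p42 UT than in p30 UT were 1 in lists of equal size, and those with fewer were 4 in lists of equal size, 0 under 0.001, 1 under 1e-05 and 0 with the bins on each side. Under LPS, members with more were 2 in lists of equal size and at 20 kb or more and 0 under 0.001 and 1e-05, and those with fewer were 2 in lists of equal size.

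The Irf3 call in UT was lost, leaving 0 members, with the share from modelled contacts (-0.03), from expected contacts (0.15, the opposite sign), with the bins on each side (-0.22) and at 20 kb or more (-0.15, 1 loop); in LPS it was lost, leaving 0, with expected contacts (-0.26) and at 20 kb or more (-0.54, 1 loop). With modelled contacts, 2 members were called higher with LPS in p30 (Irf3 0.38, Irf9 0.51), as were 15.9% of all genes, 1 lower in p42 (Irf1 -0.40), as were 16.7%, and 2 had a smaller LPS change in p42 (Irf1 -0.59, Irf3 -0.65), as had 36.8%, with a median of -0.58 over all genes; that scaling moves all loops by 0.28, -0.18, 0.26 and -0.21 on the log2 scale in the 4 comparisons (p42 UT over p30 UT, p42 LPS over p30 LPS, p30 LPS over p30 UT, p42 LPS over p42 UT). Expected contacts move the median gene to 0.18, -0.11, 0.15 and -0.15 in that order. Coverage per modelled contact moves the median start-site bin by 0.20, -0.33, 0.21 and -0.32 in the same order; with it, 3 members were over 1.5-fold lower in p42 LPS than in p30 LPS (Irf1 -0.62, Irf3 -0.85, Irf5 -0.77), as were 29.4% of all start-site bins, whose median was -0.45. With LPS, 1 was higher in p30 (Irf9 0.73; 8.15% of all bins), 0 higher in p42 (Irf9 0.33; 0.0674%) and 1 lower in p42 (Irf5 -0.60; 24.0%). Calls added under a scaling that moves all genes are not read as results about the members. The cause was not tested.

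Depth limits what a missing loop shows: of 138 cases of a member's pair missing from a list, a limit could be given in 116, from 8 to 61 contacts. In 28 it lay above the highest contacts of the other lists, scaled by modelled contacts alone, so that a loop of equal strength could have been missed, and in 88 it lay at or below them.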
